A study of Homo sapiens with 6 samples.

Results

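The 34 genes described here encode aminoacyl-tRNA synthetases, the enzymes that join each amino acid to its tRNA. They were chosen by name from the 26485 genes of the count table, as 19 cytosolic enzymes and 15 mitochondrial ones. Older symbols are kept as the table writes them, so AARS stands for the gene now called AARS1. The list does not hold every synthetase gene. The valyl enzymes had 0 counts in every library and were not analysed here. Whether this reflects absent transcripts or a gap in the counting was not tested. Read counts came from THP1, a human line derived from acute monocytic leukemia, which is used as a model of AML and is 1 line only. The control group of 3 libraries came from cells given the vehicle DMSO for 6 h, and the other 3 came from cells given withaferin A (WFA), a steroidal lactone from a medicinal plant, for 6 h. The sample labels give the WFA concentration as 1 mM and the published methods as 1 μM, and the latter unit is taken here to be meant. The libraries came from 3 independent experiments, and the same-numbered DMSO and WFA libraries share an experiment.

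In the cytosol, synthetases charge the tRNAs that feed the ribosomes translating nuclear genes. Several of them are held together with scaffold proteins in the multi-synthetase complex. A separate set of enzymes, also encoded in the nucleus, is imported into mitochondria and charges the tRNAs that read the mitochondrial genome. GARS and KARS each encode both forms from 1 gene and are listed here as cytosolic. When charged tRNA runs short, uncharged tRNA activates the kinase GCN2, and the factor ATF4 then raises transcription of amino acid transporters, of biosynthetic enzymes and of cytosolic synthetases.

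Between 11006035 and 13872810 reads were counted per library, and all 34 genes were among the 12854 that passed edgeR's filter on low counts. Markers of monocytic leukemia cells were present, 8 of 8 with over 20 counts, and summed to 32204 to 37039 counts in DMSO libraries and 24257 to 34646 in WFA libraries. Lists for T, B, erythroid and epithelial cells summed to at most 23 counts in any library. The fibroblast list summed to 3 to 11 counts with DMSO and 107 to 136 with WFA, nearly all on COL1A1, and its part in the results was not tested. Levels are given as CPM, read counts scaled to library size with TMM, a factor that evens out library composition. In bulk RNA, a change in the share of cells of a type and a change in RNA per cell cannot be told apart.

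Most mitochondrial synthetase transcripts were lower with WFA, whereas the cytosolic ones were divided. Of the 15 mitochondrial genes, 12 (80%) were lower with WFA and 0 were higher, at an adjusted p under 0.05 in the quasi-likelihood test of edgeR (Benjamini-Hochberg adjustment over all tested genes). No mitochondrial gene was higher at an unadjusted p under 0.05 either (0 of 15), and with DESeq2's Wald test the numbers were again 12 and 0. Of the 19 cytosolic genes, 9 (47.4%) were lower, 1 was higher and 9 did not pass the test. Among all tested genes, 24.7% were lower and 25.8% higher (50.5% in either direction), so that lower calls were more frequent in both classes than in the background, and higher calls less frequent. The libraries did not overlap for the same numbers of genes: the 3 WFA libraries were all below the 3 DMSO libraries for 12 mitochondrial and 9 cytosolic genes, against 28.5% of tested genes, and all above for 1 cytosolic gene, against 29.6%. With the replicate number as a block, 2 cytosolic genes were higher and 10 lower, against 30.2% and 28.8% of all tested genes, and the mitochondrial numbers stayed at 0 and 12.

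The median log2 fold change was -0.49 over the mitochondrial genes and -0.18 over the cytosolic genes, beside 0.02 over all tested genes. All 15 mitochondrial values were below 0, from -0.03 for RARS2 to -2.38 for MARS2. Cytosolic values ran from -0.82 for FARSA to 0.75 for AARS, and 12 of the 19 were below 0. Within the 3 experiments the mitochondrial median was -0.56, -0.45 and -0.59, and the cytosolic median was -0.22, -0.16 and -0.10. The cytosolic median exceeded the mitochondrial one by 0.31 over the whole fit, and by 0.34, 0.30 and 0.50 within the experiments. Members are not replicates of a treatment, so this difference is given as a description without a test.

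**Figure D1:**
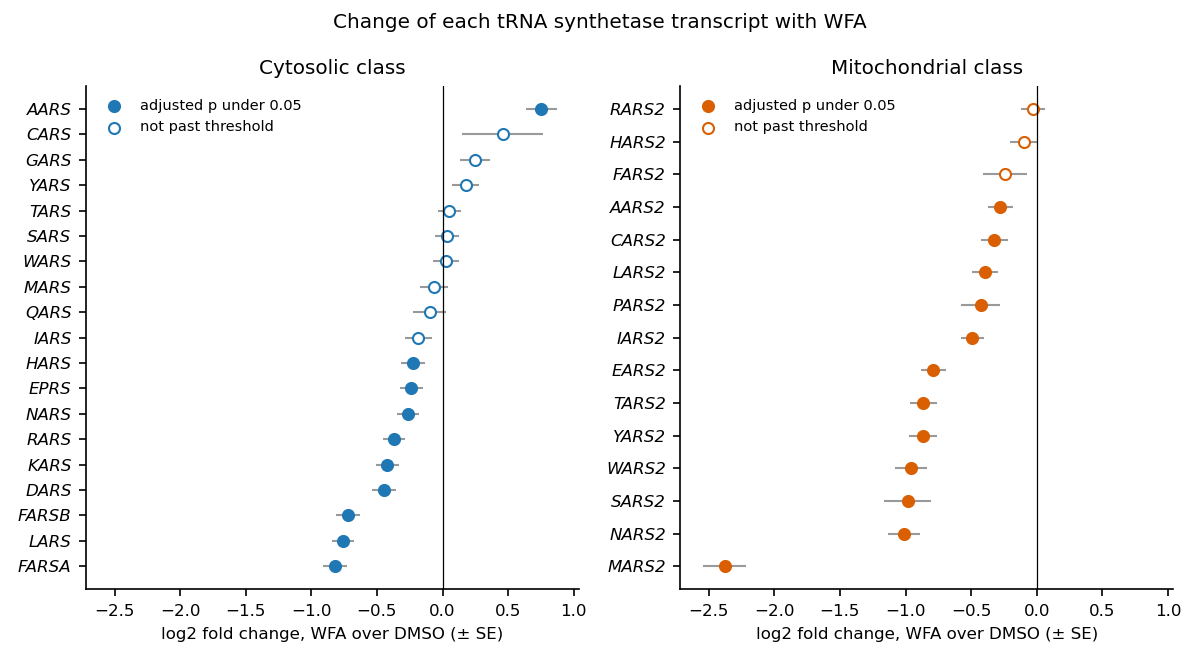
Log2 fold change of each synthetase transcript, WFA over DMSO (x axis, points with standard errors), for the 19 cytosolic genes and the 15 mitochondrial genes, each ordered by value. Filled points passed an edgeR adjusted p under 0.05: AARS alone lies above 0 among them, and MARS2 lies farthest below at -2.38.

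The summed level of each class moved in the same way. Mitochondrial synthetase transcripts summed to 962, 973 and 955 CPM in DMSO replicates 1, 2 and 3, and to 694, 695 and 640.2 CPM in the WFA replicates. The cytosolic transcripts summed to 4463, 4344 and 4557 CPM with DMSO and to 3894, 3866 and 4277 CPM with WFA. Every WFA library was below every DMSO library in both sums, although WFA replicate 3 came close to the DMSO range for the cytosolic sum. Per kilobase of annotated exon, the cytosolic genes had a median level of 49.1 CPM per kb with DMSO and 36.7 with WFA, and the mitochondrial genes 10.4 and 5.11. The most abundant on this per-length scale with DMSO was EPRS, which charges both glutamate and proline, at 141 ± 4.22 CPM per kb (SD, n = 3). NARS, the asparaginyl enzyme, and IARS2, the mitochondrial isoleucyl enzyme, followed at 89.1 ± 4.42 and 88.2 ± 1.83 CPM per kb (SD, n = 3), which did not differ beyond their spread.

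AARS, the alanyl enzyme, was the only synthetase transcript that rose in the fit without a block. It had 231, 211 and 225 CPM in DMSO replicates 1, 2 and 3, and 343, 325 and 457 CPM in the WFA replicates. All WFA libraries stood above all DMSO libraries, with WFA replicate 3 well above the other two. The means were 222 ± 10.2 and 375 ± 71.5 CPM (SD, n = 3 per group), and the log2 fold change was 0.75 ± 0.12 (SE, edgeR adjusted p = 7.4e-05). Without WFA replicate 3 the log2 fold change was 0.59 and still passed the test. AARS lies on chr16:70252298-70289506 (GRCh38.p14, minus strand). Its promoter is shown because it holds, at positions -187 to -180 from the start, a match to TGATGNAA, the core of the C/EBP-ATF response element that ATF4 binds with a C/EBP partner. The run reads 5′ to 3′ on the gene's strand over chr16:70289477-70289756, 250 bases before the start to 30 after it, from RefSeq, with the match (on the opposite strand) in capitals.
AARS promoter: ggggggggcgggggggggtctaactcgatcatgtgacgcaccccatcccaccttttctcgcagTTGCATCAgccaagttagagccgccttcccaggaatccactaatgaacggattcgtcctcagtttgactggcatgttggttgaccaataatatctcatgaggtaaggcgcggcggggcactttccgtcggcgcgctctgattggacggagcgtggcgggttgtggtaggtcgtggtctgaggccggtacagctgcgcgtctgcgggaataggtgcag

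GARS, the glycyl enzyme, had 224, 225 and 259 CPM with DMSO and 255, 247 and 336 CPM with WFA. The groups overlapped, since DMSO replicate 3 stood above WFA replicates 1 and 2, although each WFA library was above the DMSO library of its own experiment. The log2 fold change was 0.24 ± 0.11 (SE, edgeR adjusted p = 0.0897), and with the replicate block it was 0.23 and passed the test (edgeR adjusted p = 0.00712). It also passed without WFA replicate 2, at 0.33 (edgeR adjusted p = 0.0358). CARS, the cysteinyl enzyme, had only 23, 17 and 14 counts with DMSO and 20, 18 and 29 with WFA, too few to resolve its log2 fold change of 0.46 ± 0.31 (SE, edgeR adjusted p = 0.238). Several of its neighbours in the genome were also thinly counted, with 0 counts on CDKN1C and PHLDA2 over the 6 libraries. SLC22A18 had 63 and NAP1L4 had 276, whereas OSBPL5 had 1288, and the cause was not tested. YARS, the tyrosyl enzyme, had 189 to 215 CPM with DMSO and 201 to 268 CPM with WFA, and TARS, SARS and WARS, for threonine, serine and tryptophan, had log2 fold changes between 0.02 and 0.05. None of the last 4 passed the test, and WFA replicate 3 had the highest level of the 3 WFA libraries for each of them.

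The cytosolic transcripts with the lowest log2 fold changes were those of the phenylalanyl enzyme, a tetramer of FARSA and FARSB subunits, and of the leucyl enzyme LARS. FARSA, on chr19:12922479-12933711, had 84.9, 79.4 and 73.9 CPM with DMSO and 43.2, 47.0 and 44.8 CPM with WFA. FARSB, which lies on chr2:222566899-222656092, had 165, 162 and 178 CPM with DMSO and 112, 101 and 94.1 CPM with WFA. LARS, which also acts as a leucine sensor for mTORC1 signalling, had 371, 359 and 408 CPM with DMSO and 217, 234 and 221 CPM with WFA. For these 3 genes every WFA library lay far below every DMSO library and the spread within a group was small. The means fell from 79.4 ± 5.50 to 45.0 ± 1.88 CPM for FARSA, from 169 ± 8.62 to 102 ± 9.03 for FARSB and from 379 ± 25.2 to 224 ± 8.53 for LARS (SD, n = 3 per group). The log2 fold changes were -0.82 ± 0.09 for FARSA (SE, edgeR adjusted p = 3.3e-06), -0.72 ± 0.09 for FARSB (SE, edgeR adjusted p = 1.05e-05) and -0.76 ± 0.09 for LARS (SE, edgeR adjusted p = 4.46e-06). The log2 fold changes of the phenylalanyl subunits lay about 1 standard error apart.

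Smaller falls were measured for DARS and KARS, the aspartyl and lysyl enzymes. DARS had 203, 192 and 208 CPM with DMSO and 160, 151 and 131 CPM with WFA, and KARS had 331, 334 and 314 CPM with DMSO and 255, 253 and 223 CPM with WFA. The groups did not overlap for either gene, and WFA replicate 3 was the lowest library of both. DARS went from 201 ± 8.18 to 147 ± 14.8 CPM (SD, n = 3 per group), and the log2 fold change was -0.45 ± 0.09 (SE, edgeR adjusted p = 0.00085). KARS went from 326 ± 10.8 to 244 ± 17.9 CPM (SD, n = 3 per group), and the log2 fold change was -0.42 ± 0.09 (SE, edgeR adjusted p = 0.000933). RARS, the arginyl enzyme, followed at -0.37 (edgeR adjusted p = 0.0018).

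NARS, EPRS and HARS, the histidyl enzyme, fell least among the genes that passed, at -0.26, -0.24 and -0.23 (edgeR adjusted p = 0.0169, 0.0321 and 0.0451). NARS lost the call without DMSO replicate 1 or WFA replicate 2 (edgeR adjusted p = 0.066 and 0.0506), and EPRS without DMSO replicate 1, WFA replicate 1 or WFA replicate 2 (0.113, 0.0688 and 0.107). HARS lost it without any library other than WFA replicate 2 (edgeR adjusted p from 0.0554 without DMSO replicate 1 to 0.144 without WFA replicate 3), and it also narrowly missed the threshold with no low-count filter (0.0508) or a minimum count of 50 (0.0543). IARS, QARS and MARS, for isoleucine, glutamine and methionine, had log2 fold changes of -0.18, -0.10 and -0.07 that did not pass. IARS passed with the replicate block, at -0.19 (edgeR adjusted p = 0.0324), and without WFA replicate 3, at -0.29 (edgeR adjusted p = 0.0285), as it did with total counts in place of TMM (-0.27, edgeR adjusted p = 0.0449). QARS varied widely among libraries of a group, with 137 to 175 CPM with DMSO and 122 to 174 CPM with WFA. MARS shares 355 bases, 5.05% of its exon bases, with the oppositely oriented DDIT3, whose transcript rose with WFA, and how far reads of DDIT3 entered the MARS count was not tested.

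Of the 8 synthetase genes of the complex (DARS, EPRS, IARS, KARS, LARS, MARS, QARS and RARS), 5 were lower, 0 were higher and all 8 had log2 fold changes below 0, with a median of -0.30. Of the 11 other cytosolic genes, 4 were lower (FARSA, FARSB, NARS and HARS), 1 was higher and 6 did not pass, with a median of 0.03. Lower calls thus made up 62.5% of the complex and 36.4% of the others, against 24.7% of all tested genes. Higher calls made up 0% and 9.09%, against 25.8%. The median within the experiments was -0.31, -0.30 and -0.31 for the complex, and -0.07, -0.02 and 0.19 for the others. Synthetases also fall into catalytic class I and class II by the fold of the active site. The 16 class I genes had a median of -0.35 and the 17 class II genes -0.28, with EPRS, which holds a domain of each, set aside. The order differed between the compartments. Among cytosolic genes class I was at -0.08 and class II at -0.24, whereas among mitochondrial genes class I was at -0.64 and class II at -0.43.

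Among mitochondrial enzymes, MARS2, the methionyl enzyme of the organelle, fell farthest. It had 30.9, 31.0 and 32.2 CPM in DMSO replicates 1, 2 and 3, and 4.90, 8.05 and 5.02 CPM in the WFA replicates. The DMSO libraries lay close together and every WFA library was far below them, with WFA replicate 2 the highest of the treated libraries. The means were 31.4 ± 0.747 and 5.99 ± 1.79 CPM (SD, n = 3 per group), which was 5.20-fold lower with WFA and gave a log2 fold change of -2.38 ± 0.17 (SE, edgeR adjusted p = 2.81e-08). The counts behind these levels were 439, 393 and 387 with DMSO and 60, 100 and 54 with WFA. Only 35 of the 12854 tested genes (0.272%) had a log2 fold change as low or lower, MARS2 included. MARS2 lies on chr2:197705369-197708395 (plus strand). Its promoter, over chr2:197705119-197705398 and 5′ to 3′ on the gene's strand, is shown because it holds an E-box, CACGTG, at positions -11 to -6 from the start (in capitals), the element bound by MYC with MAX.
MARS2 promoter: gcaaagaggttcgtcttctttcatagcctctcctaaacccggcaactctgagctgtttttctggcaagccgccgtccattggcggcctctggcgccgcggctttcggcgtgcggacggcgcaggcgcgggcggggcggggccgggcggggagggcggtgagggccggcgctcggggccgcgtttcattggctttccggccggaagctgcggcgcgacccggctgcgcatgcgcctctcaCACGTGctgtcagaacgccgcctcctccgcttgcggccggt

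The next lowest were NARS2, SARS2, WARS2 and YARS2, for asparagine, serine, tryptophan and tyrosine. NARS2, on chr11:78435968-78574864, had 24.5, 24.1 and 25.8 CPM with DMSO and 13.0, 11.8 and 12.1 CPM with WFA. WARS2, on chr1:119031216-119140672, had 34.05, 33.6 and 31.4 CPM with DMSO and 17.6, 19.01 and 14.1 CPM with WFA. Each fell clear of the DMSO range in all 3 WFA libraries. NARS2 went from 24.8 ± 0.914 to 12.3 ± 0.635 CPM (SD, n = 3 per group), and the log2 fold change was -1.01 ± 0.12 (SE, edgeR adjusted p = 5.82e-06). WARS2 went from 33.0 ± 1.40 to 16.9 ± 2.51 CPM (SD, n = 3 per group), and the log2 fold change was -0.96 ± 0.12 (SE, edgeR adjusted p = 1.5e-05).

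SARS2 had 14.1, 9.95 and 12.7 CPM with DMSO and 5.47, 7.25 and 5.86 CPM with WFA. DMSO replicate 2 was the lowest control and WFA replicate 2 the highest treated library, so the groups came closest in that experiment without overlapping. The means were 12.3 ± 2.10 and 6.19 ± 0.933 CPM (SD, n = 3 per group), and the log2 fold change was -0.98 ± 0.18 (SE, edgeR adjusted p = 0.000305). SARS2 shares 10.8% of its exon bases with MRPS12 on the opposite strand. YARS2 had 47.7, 44.0 and 51.5 CPM with DMSO and 27.2, 27.5 and 23.7 CPM with WFA, again with no overlap. It went from 47.7 ± 3.75 to 26.1 ± 2.08 CPM (SD, n = 3 per group), and the log2 fold change was -0.87 ± 0.11 (SE, edgeR adjusted p = 8.85e-06).

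**Figure D2:**
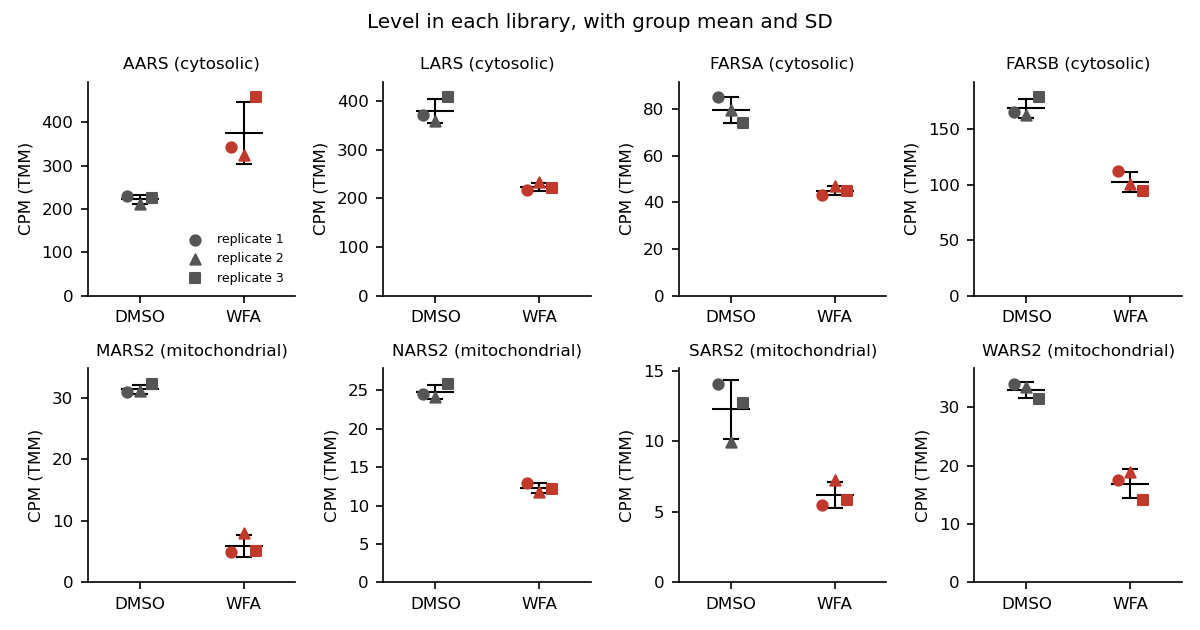
CPM of 8 synthetase transcripts in each library (y axis from 0, TMM scaled), DMSO in grey and WFA in red, with marker shape giving the replicate and lines giving the group mean and SD. AARS was higher in all 3 WFA libraries and highest in WFA replicate 3, while for the other 7 every WFA point lies under every DMSO point.

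TARS2 and EARS2, the threonyl and glutamyl enzymes, fell nearly as far, at -0.87 (edgeR adjusted p = 6.62e-06) and -0.79 (edgeR adjusted p = 6.97e-06). IARS2, the most abundant mitochondrial synthetase transcript, was at -0.49 (edgeR adjusted p = 0.000299), PARS2, the prolyl enzyme, at -0.43 (0.0244) and LARS2 at -0.39 (0.00437). CARS2 and AARS2 fell least among those that passed, at -0.32 (edgeR adjusted p = 0.015) and -0.28 (0.028). The calls of PARS2, CARS2 and AARS2 depended on single libraries. PARS2 missed the threshold without DMSO replicate 1, WFA replicate 2 or WFA replicate 3 (edgeR adjusted p = 0.106, 0.0512 and 0.0601), and CARS2 without DMSO replicate 2 or WFA replicate 3 (0.0554 and 0.0698). AARS2 missed it without any library other than WFA replicate 2, with edgeR adjusted p-values up to 0.115 without WFA replicate 1.

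RARS2, HARS2 and FARS2, for arginine, histidine and phenylalanine, did not pass the test. RARS2 had 66.8, 81.7 and 73.2 CPM with DMSO and 72.5, 70.3 and 74.3 CPM with WFA, so that the treated libraries lay inside the control range. Its log2 fold change was -0.03 ± 0.09 (SE, edgeR adjusted p = 0.808), while HARS2 was at -0.10 (edgeR adjusted p = 0.447) and FARS2 at -0.24 (edgeR adjusted p = 0.253). HARS2 shares 437 bases, 11.7% of its exon bases, with HARS, whose start lies 85 bases away on the opposite strand, so reads in the shared stretch could have been counted for either gene or for none.

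The ratio of reads on the cytosolic gene to reads on the mitochondrial gene for the same amino acid compares the compartments within a library and does not depend on library scaling. Of 16 such ratios, 10 (62.5%) were higher in all 3 WFA libraries than in any DMSO library, 4 (25%) were lower in all 3, and 2 overlapped. An exact two-sided permutation test was run on 3 libraries against 3, without regard to the shared experiments. It cannot give a p-value below 0.1, and it gave that value for each of the 14 ratios without overlap. The ratios are not independent, since EPRS enters 2 of them and FARS2 enters 2. The median log2 difference over the 16 was 0.65, and 11 were higher in each experiment.

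MARS reads per MARS2 read numbered 3.40, 3.70 and 3.72 with DMSO and 18.9, 12.8 and 25.2 with WFA, a 5.07-fold rise of the ratio with all WFA libraries far above. AARS reads per AARS2 read numbered 3.30, 2.96 and 3.09 with DMSO and 6.55, 4.87 and 7.94 with WFA, a 2.03-fold rise. In the first case MARS2 fell and the log2 fold change of MARS was near 0, whereas in the second AARS rose and AARS2 fell. The ratios for tyrosine, serine, tryptophan and threonine were higher by 1.04, 1.01, 0.99 and 0.93 on the log2 scale. Those for cysteine (0.77), asparagine (0.75) and glutamate (0.55) followed, with the cysteine ratio resting on the few reads of CARS. The smallest rise without overlap was that for proline, at 0.18. EPRS reads per PARS2 read numbered 65.1, 71.1 and 74.1 with DMSO and 78.8, 76.5 and 83.1 with WFA.

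The 4 ratios that were lower with WFA belonged to arginine, leucine and both phenylalanine subunits. LARS reads per LARS2 read numbered 7.70, 8.64 and 8.52 with DMSO and 6.02, 7.07 and 6.19 with WFA. FARSA reads per FARS2 read numbered 10.3, 10.5 and 10.3 with DMSO and 5.92, 8.16 and 6.93 with WFA. In each, every treated library was below every control, and the log2 differences were -0.37 for leucine, -0.58 for FARSA, -0.48 for FARSB and -0.34 for arginine. For isoleucine and histidine the groups overlapped, with log2 differences of 0.30 (exact permutation p = 0.2) and -0.14 (exact permutation p = 0.5).

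**Figure D3:**
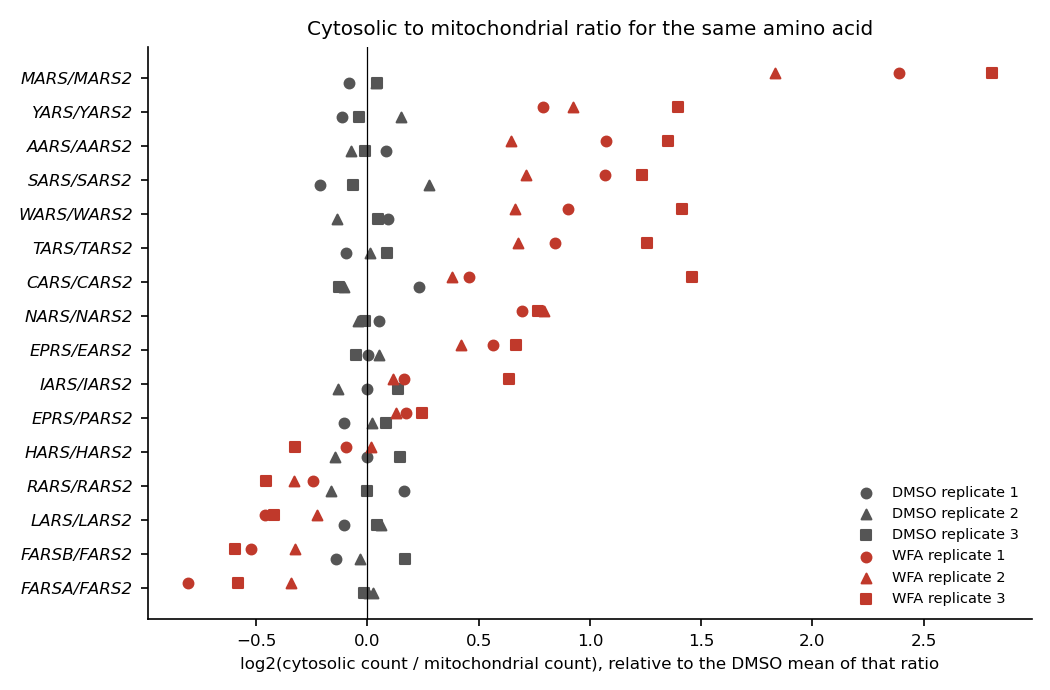
Log2 ratio of cytosolic to mitochondrial reads for the same amino acid in each library, relative to the DMSO mean of that ratio (x axis), for 16 gene pairs. WFA libraries lie to the right of all DMSO libraries for 10 pairs, with MARS over MARS2 farthest, and to the left for 4.

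Promoters were examined for 3 short motifs, from 250 bases before to 30 after each start. RefSeq promoters (GRCh38.p14) were matched for 30 of the 34 genes. YARS, DARS, LARS and AARS2 were not matched. TGATGNAA, searched on both strands, was found for 7 of 16 cytosolic genes (AARS, CARS, GARS, TARS, MARS, IARS and NARS) and for 1 of 14 mitochondrial genes (YARS2), against 3.45% of all promoters and 4.26% of genes. The 30 bases around each match are given because they carry this contrast between the classes, 5′ to 3′ on the gene's strand with the match in capitals. TTGCATCA, the opposite strand of TGATGCAA, recurs in 5 of the 7 cytosolic genes.
AARS chr16:70289675-70289704: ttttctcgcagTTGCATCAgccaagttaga
CARS chr11:3057407-3057436: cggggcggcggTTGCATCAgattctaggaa
GARS chr7:30594834-30594863: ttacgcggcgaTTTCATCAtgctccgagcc
TARS chr5:33440956-33440985: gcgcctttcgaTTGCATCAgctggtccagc
MARS chr12:57488053-57488082: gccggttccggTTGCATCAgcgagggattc
IARS chr9:92293692-92293721: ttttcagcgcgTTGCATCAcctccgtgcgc
NARS chr18:57621804-57621833: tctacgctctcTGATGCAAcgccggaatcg
YARS2 chr12:32756076-32756105: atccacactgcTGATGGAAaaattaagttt

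The 7 cytosolic genes with a TGATGNAA match had log2 fold changes with a median of 0.05, and 1 was higher (AARS), 1 lower (NARS) and 5 that did not pass. For the 9 without a match the median was -0.24, with 0 higher, 6 lower and 3 that did not pass. This is a description of 16 genes, and a match does not show that a factor was bound. CARS had the second highest log2 fold change of the cytosolic genes, but with 14 to 29 counts per library it was not resolved. Its value was 0.46 ± 0.31 (SE, edgeR adjusted p = 0.238). The match overlaps the start of CARS, as the wider sequence over chr11:3057394-3057673 shows.
CARS promoter: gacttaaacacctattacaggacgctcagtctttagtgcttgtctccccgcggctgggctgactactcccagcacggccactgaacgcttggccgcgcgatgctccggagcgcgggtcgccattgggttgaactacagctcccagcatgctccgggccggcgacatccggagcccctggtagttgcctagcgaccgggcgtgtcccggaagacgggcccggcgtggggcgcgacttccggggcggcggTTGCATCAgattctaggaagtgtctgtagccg

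The E-box CACGTG was found for 3 of 14 mitochondrial genes (CARS2, EARS2 and MARS2) and for 1 of 16 cytosolic genes (IARS), against 6.94% of all promoters and 8.42% of genes. The 3 mitochondrial genes with the E-box were lower with WFA, as were 8 of the 11 without it. TGACNNNGC, the core of the antioxidant response element bound by NRF2, was found for 4 of 16 cytosolic genes (GARS, TARS, WARS and KARS) and 2 of 14 mitochondrial genes (RARS2 and NARS2), against 12.4% of all promoters and 14.9% of genes. Of these 6 genes, KARS and NARS2 were lower and the others did not pass.

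**Figure D4:**
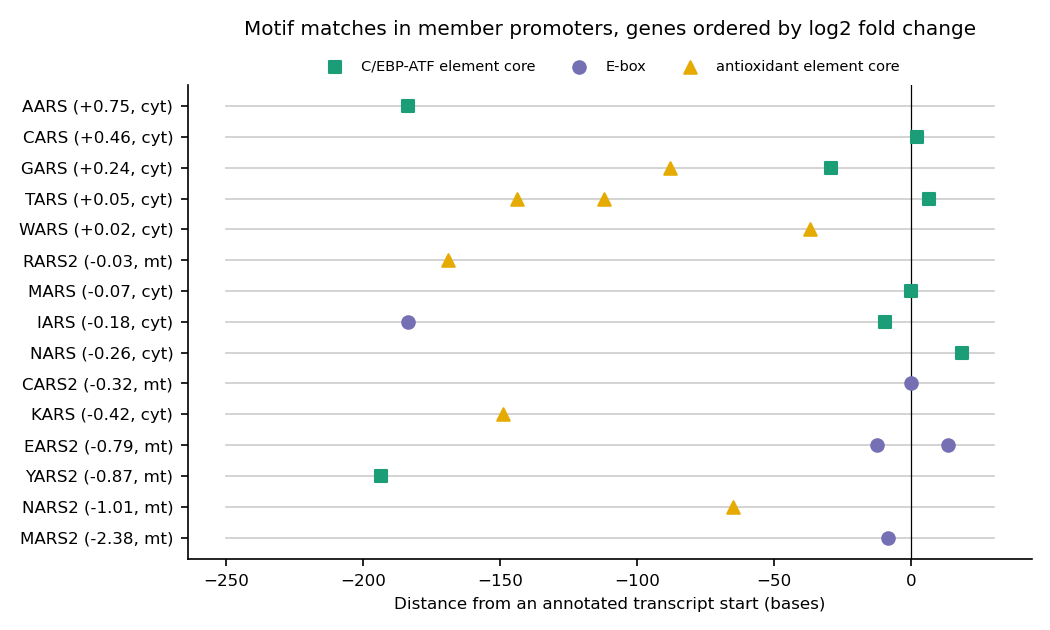
Position of each motif match (x axis, bases from an annotated transcript start) in the promoters of the genes that hold one, ordered by log2 fold change, with the class and value beside each name. C/EBP-ATF element cores lie mostly in the upper, cytosolic rows, and the E-boxes of CARS2, EARS2 and MARS2 lie close to a start.

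Genes that work with the synthetases were taken from 8 lists, and 34 of their 36 genes were tested. Together, 5 were higher (14.7%, against 25.8% of all tested genes), 14 lower (41.2%, against 24.7%) and 15 did not pass. Under the replicate block 8 were higher and 14 lower, against 30.2% and 28.8% of all tested genes. The 3 scaffold genes of the multi-synthetase complex were all lower, AIMP1 the least, at -0.22 (edgeR adjusted p = 0.0398). AIMP2, the scaffold's core, had 54.7, 53.5 and 48.5 CPM with DMSO and 22.5, 25.9 and 20.8 CPM with WFA, with no overlap, and a log2 fold change of -1.17 ± 0.11 (SE, edgeR adjusted p = 5.73e-07). EEF1E1, which encodes AIMP3, was at -1.01 ± 0.22 (SE, edgeR adjusted p = 0.0016), from 4.34 to 5.28 CPM with DMSO to between 1.95 and 2.78 CPM with WFA. The scaffold genes share exon bases with neighbours, 28.9% of AIMP2 with EIF2AK1 and 18.7% of EEF1E1 with a readthrough transcript.

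Among all tested genes, 24.7% were lower and 25.8% higher. Of 9 genes that process tRNA ends or export tRNAs before charging, 7 were lower and 0 higher, with a median of -0.55. The others, the exporter XPOT at 0.17 (edgeR adjusted p = 0.183) and RPP30 at -0.05 (edgeR adjusted p = 0.726), did not pass the test. RPP40, a protein subunit of RNase P, which trims the 5′ end of precursor tRNAs, had 10.8, 8.53 and 9.91 CPM with DMSO and 3.02, 3.70 and 2.79 CPM with WFA. ELAC2, which trims the 3′ end in the nucleus and in mitochondria, had 45.2, 49.0 and 47.2 CPM with DMSO and 21.1, 23.7 and 21.3 CPM with WFA. Every WFA library lay below every DMSO library for both genes, and their log2 fold changes were -1.61 ± 0.19 (SE, edgeR adjusted p = 5.7e-06) and -1.10 ± 0.10 (SE, edgeR adjusted p = 5.8e-07). DTD2, which removes wrongly attached residues, was lower at -0.68 (edgeR adjusted p = 0.00027), and neither of the 2 genes for charging selenocysteine passed the test.

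Translation factor genes of the cytosol and of mitochondria were mixed. In the cytosol, 0 of 4 tested elongation factor genes passed, with a median of 0.20, and 3 of them, EEF1A1, EEF1G and EEF2, were higher with the replicate block (edgeR adjusted p = 0.0418, 0.00599 and 0.033). At an unadjusted p under 0.05, EEF1G alone was higher in the fit without the block. Among 6 mitochondrial genes, TSFM and GFM1, which encode elongation factors, were lower at -0.90 (edgeR adjusted p = 1.86e-05) and -0.69 (edgeR adjusted p = 9.78e-06). TUFM, MTIF2 and MTIF3 did not pass, at -0.08, -0.08 and -0.06 (edgeR adjusted p = 0.442, 0.522 and 0.694). GFM2, which helps to recycle mitochondrial ribosomes after translation ends, was higher. It had 72.5, 69.7 and 62.3 CPM with DMSO and 174, 162 and 173 CPM with WFA, well apart, with a log2 fold change of 1.31 ± 0.09 (SE, edgeR adjusted p = 1.81e-08). GFM2 shares 8.89% of its exon bases with NSA2 on the opposite strand. Of the 4 genes that modify mitochondrial tRNAs once charged, GATB was higher at 0.41 (edgeR adjusted p = 0.00794) and QRSL1 lower at -0.32 (edgeR adjusted p = 0.006), although their products belong to 1 amidotransferase.

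Of the 4 genes listed for the amino acid response, 3 (ATF4, DDIT3 and TRIB3) were higher, against 25.8% of all tested genes. EIF2AK4, which encodes GCN2, did not pass at -0.07. In THP1 cells given WFA, the published study also reported enrichment of unfolded protein response gene sets. It further reported more phosphorylation of the translation factor eIF2S1. Which pathway raised ATF4, DDIT3 and TRIB3 was not tested. DDIT3, which encodes the transcription factor CHOP, had 28.8, 30.7 and 32.0 CPM with DMSO and 83.7, 75.0 and 131 CPM with WFA. TRIB3, a pseudokinase gene induced by ATF4 and CHOP, had 35.3, 38.3 and 37.1 CPM with DMSO and 65.3, 74.4 and 140.3 CPM with WFA. WFA replicate 3 was highest for both, by a wide margin, and the groups did not overlap. Their log2 fold changes were 1.66 ± 0.17 (SE, edgeR adjusted p = 1.07e-06) and 1.34 ± 0.21 (SE, edgeR adjusted p = 8.38e-05), and without WFA replicate 3 they were 1.38 and 0.92. ATF4 was at 0.45 (edgeR adjusted p = 0.00372).

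**Figure D5:**
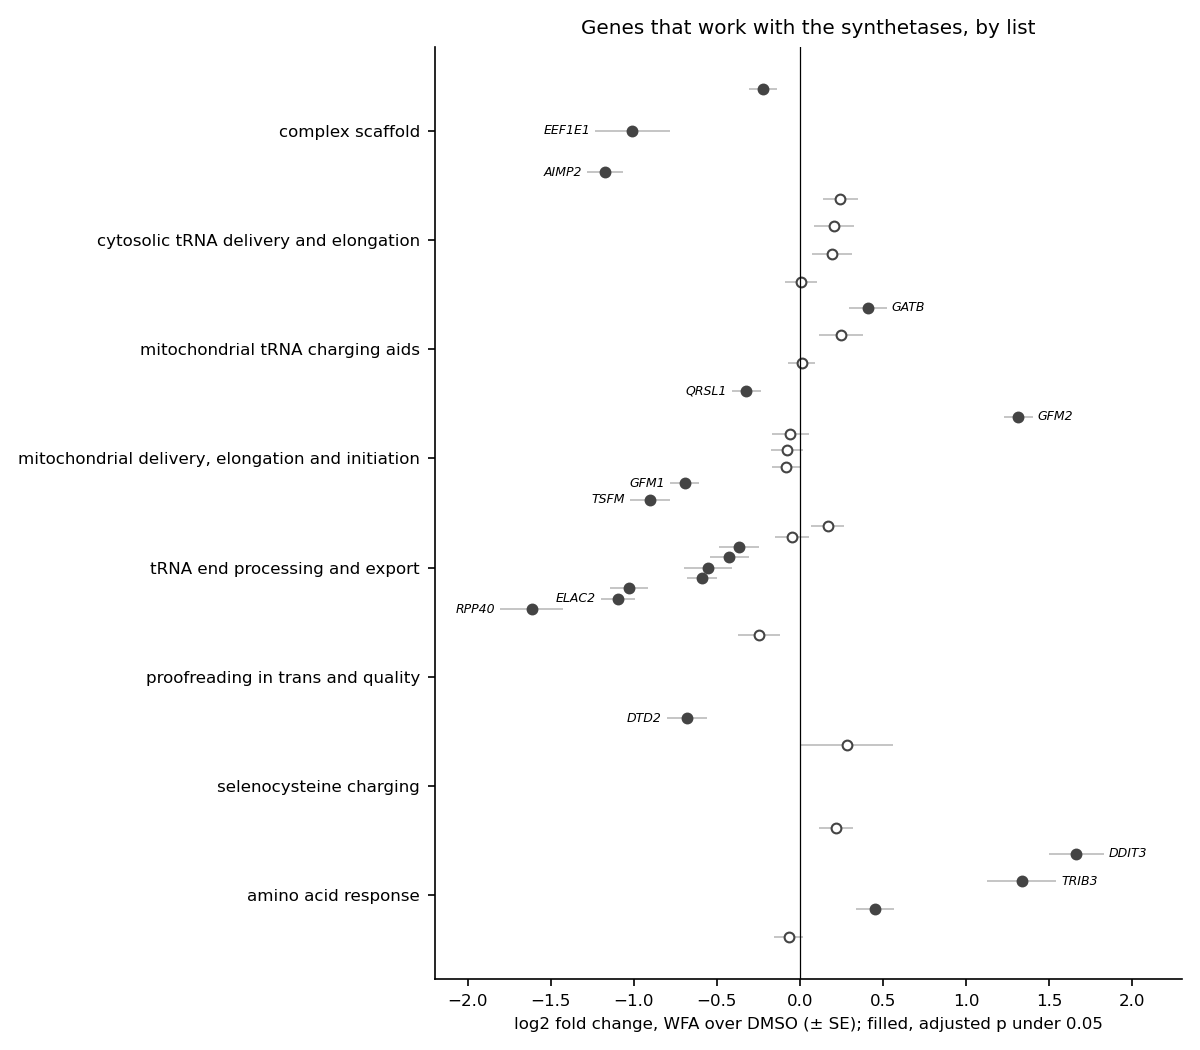
Log2 fold change with standard error (x axis) of the 34 tested genes on 8 lists of genes that work with the synthetases, filled where the edgeR adjusted p was under 0.05. The scaffold and tRNA end processing lists lie mostly below 0, while DDIT3, TRIB3 and GFM2 lie above 1.

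Among the 3 WFA libraries, replicate 3 was the highest for 10 of the 19 cytosolic genes, compared with 32.4% of all tested genes, and the lowest for 7 of the 15 mitochondrial genes, compared with 33.7%. Among the 3 DMSO libraries, replicate 3, which comes from the same experiment, was likewise the highest for 10 cytosolic genes, compared with 35.3% of all tested genes, and the lowest for 6 mitochondrial genes, compared with 36.5%. WFA replicate 3 was also the highest WFA library for ATF4, DDIT3 and TRIB3. Without WFA replicate 3 the cytosolic median exceeded the mitochondrial one by 0.23 in place of 0.31, and without WFA replicate 1 by 0.38.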

How the data were processed

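RNA from THP1 cells was sequenced from TruSeq RNA v2 libraries, 3 per group. Raw read counts for each gene were deposited by the authors. The other deposited columns, a score per library (the count over a size factor, rounded by the authors) and the authors' own comparison with a fold ratio, log2 values, p-values and dispersion scores, were not used here. The submitters' processing notes name bcl2fastq 2.19, Trimmomatic, Bowtie2, Picard, featureCounts, DESeq2 and the build hg38. The annotation and the strand setting are not given in the sources used here.

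Counts were compared with edgeR 4.0.16 in R 4.3.3 (TMM, filterByExpr with a minimum count of 10, quasi-likelihood test over all 12854 tested genes, adjusted p threshold 0.05). The genes given in full were, in each class, up to 5 largest rises and falls past the threshold with 1 direction in all 3 experiments, any member past it against its class, and up to 2 genes in each direction on each of the 8 lists. The 34 members, the lists and the motifs were chosen with earlier results of these data known. Named genes outside that rule, exon neighbours and WFA replicate 3 were taken up after their values were seen. Ratios used counts plus 0.5. Replicate numbers mark shared experiments, from the label codes and the methods. Same-numbered libraries deviated together from their group means (correlations across genes of 0.22, 0.33 and 0.25, others from -0.26 to 0.00), so fits with a block were added. The block left 2 residual degrees of freedom in place of 4. The median prior degrees of freedom in edgeR were infinite with the block and 10.8 without it. With the block, a typical gene thus took its variance from the trend over all genes. Calls made only with the block, as for GARS, IARS, EEF1A1, EEF1G and EEF2, carry this limit. No 2 libraries of a group agreed within sampling noise (chi-square per gene 5.98 to 11.1). The fit was tested on simulated data. Exon lengths and overlaps came from GENCODE 29, positions and promoters from RefSeq. DESeq2 1.42.0, other scalings, filters, a robust fit and leaving out each library were tried as alternatives.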

Additional observations from a re-analysis of the deposited data

How the results depend on the processing

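Of the 22 members past the threshold, 16 kept call and direction under every alternative listed in the methods, and the other 6 (EPRS, HARS, NARS, AARS2, CARS2 and PARS2) lost the call under some while keeping direction. Of the 12 others, GARS and IARS passed under some alternatives. With the replicate block 2 cytosolic genes were higher, and it changed no call other than those of GARS and IARS among the members. Total counts in place of TMM moved the median of all tested genes from 0.02 to -0.06, the cytosolic median to -0.27 and the mitochondrial median to -0.58, with their difference at 0.31. Under that scaling SARS, TARS and WARS turned to -0.050, -0.033 and -0.061 without passing the test. Without CARS, an alternative chosen after seeing the data, the difference was 0.29. Leaving out single libraries gave 1 to 2 higher and 6 to 9 lower cytosolic genes, 9 to 11 lower mitochondrial genes, a cytosolic median from -0.22 to -0.16, a mitochondrial median from -0.54 to -0.42 and a difference from 0.23 to 0.38. It also turned the sign of 6 genes that did not pass, with ranges of -0.20 to 0.031 for MARS, -0.25 to 0.011 for QARS, -0.047 to 0.087 for SARS, -0.013 to 0.094 for TARS, -0.065 to 0.096 for WARS and -0.10 to 0.035 for RARS2. No ratio was reversed. The cause of these shifts was not tested beyond the fewer libraries in each fit. Low counts limit CARS most, with 14 to 29 per library, and their cause was not tested. The strand setting of the counting was not given. Reads where genes overlap on opposite strands could thus have been counted for either gene or for none.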
